A study of Mus musculus with 14 samples.

Results

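Regions with Sin3A in myoblasts alone are stretches of the mouse genome where a Sin3A peak was listed in growing C2C12 myoblasts and no peak was listed for Sin3A in myotubes or for Sin3B at either stage. The regions were chosen by the listed peak positions themselves. Peaks of the 4 distinct lists that overlapped by at least 1 bp were merged into 5137 regions. Of these, 345 regions (6.72%) held a Sin3A myoblast peak and nothing else, each with 1 peak. They made up 50.5% (46.7 to 54.3%) of the 683 regions with a Sin3A myoblast peak. Bounds given with a share are Clopper-Pearson bounds at 95% and cover counting error only.

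C2C12 is a mouse skeletal muscle line of C3H background whose single myoblasts fuse into myotubes when serum is lowered. The 4 groups used here were Sin3A in myoblasts (2 samples, 10% fetal bovine serum), Sin3A in myotubes (2 samples, 2% horse serum, parted from undifferentiated cells with diluted trypsin), Sin3B in myoblasts (2 samples) and Sin3B in myotubes (5 samples). All were chromatin immunoprecipitations, and the signal of the 3 input samples was not analysed here. The files of each group were identical, so each group was 1 list (n = 1), held 691, 759, 2387 and 3769 peaks in the same order, and had no measurable spread between replicates. Per the labels, 1 catalogue number covers the antibodies against both proteins, the Sin3A and Sin3B samples shared no lot, and 1 of the 2 lots of the Sin3A myoblast samples was used in no other group. The part of the antibody lots in the results was not tested. Since the lists carry no height or score and their depth is unknown, no statement on a protein's absence can be drawn from a place without a peak. Tests below take regions as units and compare lists, not cultures.

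Sin3A is a scaffold protein without DNA-binding activity of its own. It holds the histone deacetylases HDAC1 and HDAC2 together with histone-binding subunits, and sequence-specific factors such as the Mad family bring it to promoters and enhancers. Sin3B is its close relative and is known for partnering with E2F-linked complexes when cells leave the cell cycle. In muscle, cells leave the cycle before they fuse.

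Where the positions of the files lined up with a RefSeq gene table (described with the genes below), 3 of the regions lay at a gene start of that table or within 84 bp of one. These are the only places where sequence can be set beside the binding, and the 3 promoters are shown for that reason. Each runs 5′ to 3′ from 250 bases before the gene start to 50 after it (RefSeq, GRCm38.p6). They come from Adamts1 (minus strand, chr16:85803064-85803363), a secreted metalloprotease that cuts proteoglycans of the extracellular matrix, from Kmt5b (plus strand, chr19:3767639-3767938), a methyltransferase of histone H4 lysine 20, and from Pcx (plus strand, chr19:4510222-4510521), the mitochondrial pyruvate carboxylase. Capitals mark matches on either strand to the motifs searched.
Adamts1: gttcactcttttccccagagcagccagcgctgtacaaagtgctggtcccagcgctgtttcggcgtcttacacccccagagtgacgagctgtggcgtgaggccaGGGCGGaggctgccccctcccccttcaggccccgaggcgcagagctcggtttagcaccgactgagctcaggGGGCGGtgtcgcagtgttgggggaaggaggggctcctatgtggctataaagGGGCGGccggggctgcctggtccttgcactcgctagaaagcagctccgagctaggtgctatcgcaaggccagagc
Kmt5b: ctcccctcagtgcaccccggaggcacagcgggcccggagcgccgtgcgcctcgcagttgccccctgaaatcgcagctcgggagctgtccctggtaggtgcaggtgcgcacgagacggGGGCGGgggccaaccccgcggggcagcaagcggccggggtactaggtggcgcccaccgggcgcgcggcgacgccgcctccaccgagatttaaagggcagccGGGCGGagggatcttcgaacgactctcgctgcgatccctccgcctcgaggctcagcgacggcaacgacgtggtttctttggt
Pcx: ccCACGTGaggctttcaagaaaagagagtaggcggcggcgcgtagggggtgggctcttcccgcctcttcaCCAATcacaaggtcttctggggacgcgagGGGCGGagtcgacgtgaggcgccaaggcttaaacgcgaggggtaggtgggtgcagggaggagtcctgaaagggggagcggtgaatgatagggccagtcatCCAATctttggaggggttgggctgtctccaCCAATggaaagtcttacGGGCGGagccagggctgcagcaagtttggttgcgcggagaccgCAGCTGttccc

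The motifs, 11 in all, were CAGCTG (E-box of the MyoD type), CACGTG (E-box of the Myc type), TGANTCA (AP-1), CATTCC (TEAD), CCGGAAG (ETS), the NRF1 palindrome, TGACGTCA (CREB), GGGCGG (SP/KLF), TTTCGCGC (E2F), CCAAT (NF-Y) and TGTGGTT (RUNX). No 2 matches overlapped in these promoters. GGGCGG, the box read by SP and KLF factors, occurred 3 times in the Adamts1 promoter, 2 times in that of Kmt5b and 2 times in that of Pcx. It occurs in 35.7% of the 32851 promoters of the table, so its presence in all 3 is a description and no site was measured. The Pcx promoter also held CCAAT 3 times (37.4% of all promoters hold it), CACGTG 1 time (7.15%) and CAGCTG 1 time (16.3%). GC content was 64.7% for Adamts1, 71.3% for Kmt5b and 61.7% for Pcx, against a median of 52.7% over the table. The Sin3A myoblast peak covered the whole 300 bases at Kmt5b, 167 bases at Pcx and 101 bases at Adamts1. Taking the positions as exact, not every marked match thus lay under the peak. At Kmt5b all matches did. At Adamts1 only the GGGCGG nearest the gene start did. At Pcx the peak covered CACGTG and, of the CCAAT and GGGCGG matches, only the ones farthest from the gene start. The other CCAAT and GGGCGG matches of Pcx and its CAGCTG lay outside the peak.

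The peaks of these regions were of moderate width. They ranged from 9 to 787 bp with a median of 386 bp (366 to 413 bp, interval from ranks) and quartiles of 260 and 470 bp. Sin3A myoblast peaks in the 338 regions that also held another list had a median of 429.5 bp (408 to 446 bp) and reached 1262 bp. Widths over 600 bp were found in 18 of the regions with Sin3A alone (5.22%) and in 53 of the other Sin3A myoblast regions (15.7%). A wider peak has more room to overlap another list, so width is tied to how the regions were chosen and was not tested. Among the 683 Sin3A myoblast regions, split into 5 classes of like size by width, 67.2% of the narrowest class (6 to 262 bp) and 27.7% of the widest class (538 to 1262 bp) had Sin3A in myoblasts alone. The 3 classes between gave 51.5%, 48.9% and 57.4%, with intervals that overlap one another. Widths from 200 to below 250 bp were held by 49 of the regions with Sin3A alone (14.2%), against 15 of the others (4.44%). Those from 400 to below 450 bp were held by 59 (17.1%) and 55 (16.3%). Both ranges were picked from the many drawn in the figure and were not part of the planned description.

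**Figure D1:**
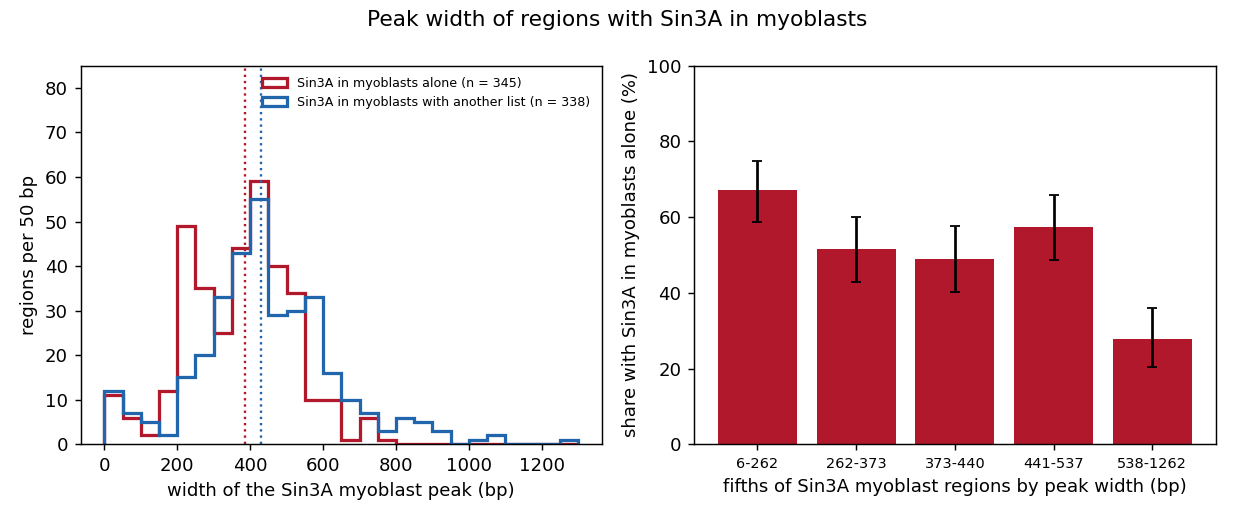
Left, number of regions per 50 bp of Sin3A myoblast peak width (widest such peak of a region), for regions with Sin3A in myoblasts alone (red, n = 345) and with another list (blue, n = 338), dotted lines at the medians of 386 and 429.5 bp. Right, share (%) of Sin3A myoblast regions with Sin3A in myoblasts alone per width class, bars with 95% exact intervals. The share is 67.2% in the narrowest and 27.7% in the widest class.

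The widest of the regions lay on chromosome 1 at 93355308 to 93356094 (787 bp), 45.0 kb from the nearest peak of another list. The next were on chromosome 10 at 41997705 to 41998453 (749 bp, with a Sin3B myotube peak 1429 bp away) and on chromosome 15 at 22811754 to 22812493 (740 bp). That on chromosome 15 was 2.53 Mb from any peak of another list. Positions count from 1 in the files' own build. Of the 10 widest, 4 lay on chromosome 15. The other 3 of these were at 96825820 to 96826515 (696 bp), at 38229042 to 38229682 (641 bp) and at 23569959 to 23570595 (637 bp), with the nearest peak of another list 296 kb, 141 bp and 1.77 Mb away. Also among the 10 widest were regions on chromosome 3 at 90418833 to 90419552 (720 bp), chromosome 5 at 67697929 to 67698640 (712 bp), chromosome 9 at 96096721 to 96097431 (711 bp) and chromosome 14 at 105469977 to 105470686 (710 bp). Their nearest peaks of other lists were 106 kb, 45.8 kb, 242 kb and 105 kb away. High width was thus found both beside Sin3B peaks and far from any.

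At the other end, 11 of the peaks (3.19%) were under 50 bp wide. In the other Sin3A myoblast regions, the widest Sin3A myoblast peak was under 50 bp in 12 (3.55%). The narrowest were on chromosome 1 at 192306987 to 192306995 (9 bp), chromosome 13 at 89710230 to 89710238 (9 bp) and chromosome 7 at 53212808 to 53212817 (10 bp). Such intervals are shorter than the DNA fragments of the libraries, which were selected at about 350 bp with adapters.

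Few of the regions narrowly missed an overlap with Sin3B or with myotube Sin3A. Since lack of overlap defines them, the distances are given without a test. The median distance to the nearest peak of any other list was 113 kb. It was 142 kb to Sin3B in myotubes, 243 kb to Sin3B in myoblasts and 917 kb to Sin3A in myotubes, an order that follows the lengths of the lists. Within 1 kb, 24 of the 345 (6.96%, 4.51 to 10.2%) had a peak of another list. Of these 24, the nearest was Sin3B in myotubes for 14, Sin3B in myoblasts for 8 and Sin3A in myotubes for 2. Within 10 kb there were 58 (16.8%, 13.0 to 21.2%) and within 100 kb 160 (46.4%, 41.0 to 51.8%).

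**Figure D2:**
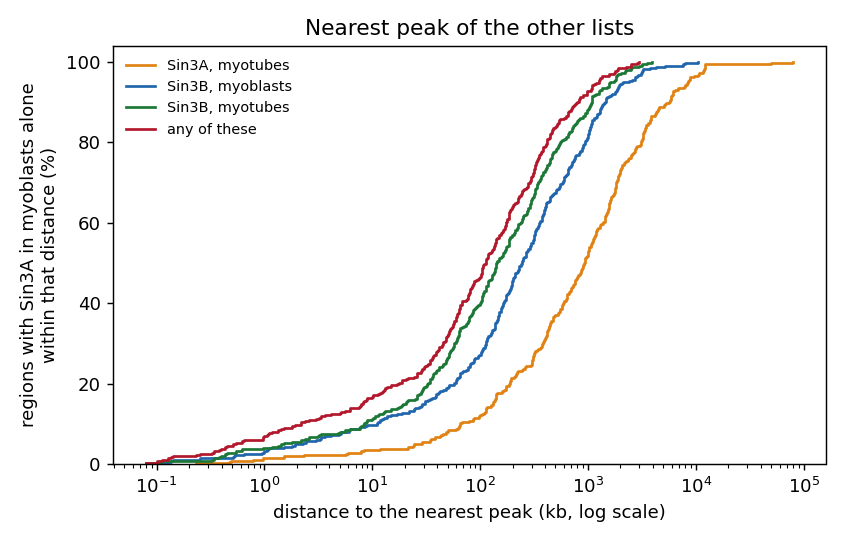
Share (%) of the 345 regions with Sin3A in myoblasts alone that lie within a given distance (kb, log axis) of the nearest peak of Sin3A in myotubes (orange), Sin3B in myoblasts (blue), Sin3B in myotubes (green) or any of these (red). At 100 kb the red line is at 46.4%, and the orange line lies below the others.

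Around the border of 1 bp, the closest regions on the inside were on chromosome 19 at 41338405 to 41338737, 79 bp from a Sin3B myotube peak, and on chromosome 10 at 119912080 to 119912515, 100 bp from a Sin3B myoblast peak. On chromosome 2 the region at 30142518 to 30142939 had a Sin3B myotube peak at 101 bp, a Sin3A myotube peak at 470 bp and a Sin3B myoblast peak at 529 bp, so that all 4 lists met there without the myoblast Sin3A peak touching the rest. The next were on chromosome 3 at 97671827 to 97672269 (111 bp from Sin3B in myotubes) and on chromosome 11 at 16407925 to 16408308 (128 bp from Sin3B in myoblasts). Only 2 of the regions lay within 100 bp of another list, and 16 within 500 bp. Just outside the border, the smallest overlaps were 4 bp on chromosome 4 at 40381606 to 40381613, 6 bp on chromosome 6 at 120544628 to 120544635, 6 bp on chromosome 9 at 63978908 to 63978987, 7 bp on chromosome X at 81265642 to 81265742 and 8 bp on chromosome 7 at 52879047 to 52879077. Their Sin3A myoblast peaks were 6, 8, 8, 101 and 31 bp wide. Overlaps in the other Sin3A myoblast regions had a median of 373.5 bp, and 305 of the 338 were of 100 bp or more. In 64 of the 338 the only other list was Sin3B in myotubes, in 44 it was Sin3B in myoblasts and in 9 it was Sin3A in myotubes.

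Far from every other list stood 25 regions, with no peak of another list within 1 Mb. Chromosome 15 held 5 of them and chromosome 10 held 4, where these chromosomes held 11.9% and 9.57% of all 345 regions. Some lay in the same empty stretch, with 3 within 545 kb on chromosome 15 and 3 within 268 kb on chromosome 10. The farthest were on chromosome 17 at 61723237 to 61723827 (2.96 Mb), on chromosome 3 at 8719742 to 8720154 (2.86 Mb) and the 740 bp region of chromosome 15. These 25 were named for their distance, after the values were seen. The peaks of the 3 farthest measured 591, 413 and 740 bp.

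Set beside the other regions held by a single list, those with Sin3A in myoblasts alone had the largest median spacing. The median distance to the nearest other region of any kind was 96.2 kb for them, 46.7 kb for Sin3A in myotubes alone (111 regions), 43.4 kb for Sin3B in myoblasts alone (880) and 44.3 kb for Sin3B in myotubes alone (1953). Another region lay within 1 kb for 7.54% of them (4.98 to 10.8%), for 19.8% of Sin3A in myotubes alone (12.9 to 28.5%), for 20.1% of Sin3B in myoblasts alone (17.5 to 22.9%) and for 20.2% of Sin3B in myotubes alone (18.4 to 22.0%). Within 10 kb the share was 19.1% (15.1 to 23.7%) for Sin3A in myoblasts alone and 24.3% (16.7 to 33.4%) for Sin3A in myotubes alone. It was 31.4% (28.3 to 34.5%) for Sin3B in myoblasts alone and 27.3% (25.3 to 29.3%) for Sin3B in myotubes alone. More than 500 kb separated 47 of the 345 (13.6%, 10.2 to 17.7%) from any other region, against 2.70%, 9.20% and 6.25% in the same order. For the Sin3A myoblast regions with another list, the median was 50.1 kb, with 18.9% (14.9 to 23.5%) within 10 kb and 7.99% (5.33 to 11.4%) beyond 500 kb. Counting only peaks of other lists, 16.8% of the regions with Sin3A in myoblasts alone and 15.3% of those with Sin3B in myotubes alone had one within 10 kb. The median distance to such a peak was 113 kb for Sin3A in myoblasts alone and 55.7 kb for Sin3A in myotubes alone. For Sin3B alone it was 61.3 kb in myoblasts and 84.9 kb in myotubes. These distances share the lists that chose the classes, and they too are a description.

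**Figure D3:**
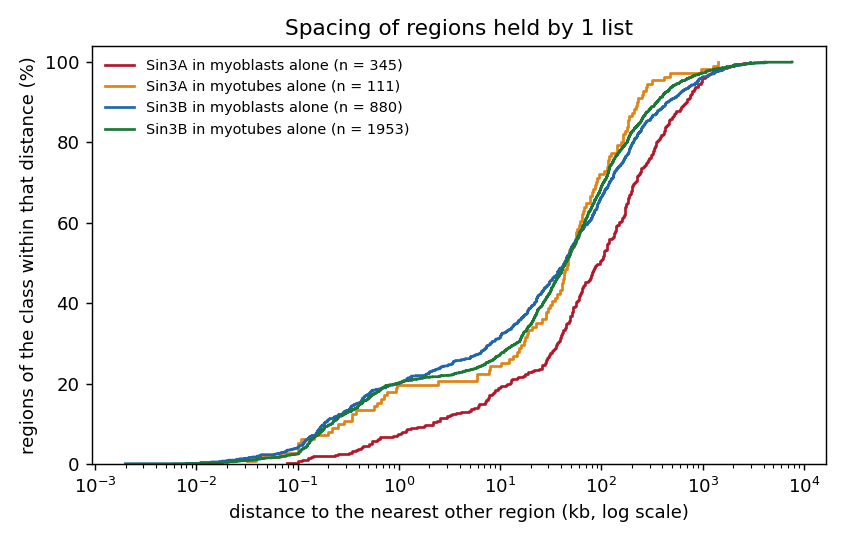
Share (%) of regions within a given distance (kb, log axis) of the nearest other region, for regions held by 1 list, with Sin3A in myoblasts in red. The red line lies below the other 3 from 1 to 100 kb, and its median is 96.2 kb against 43.4 to 46.7 kb.

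The regions were spread along the chromosomes and rarely lay side by side. Joined over gaps of at most 100 kb, 317 of the 345 stood singly, 22 formed 11 pairs and 6 formed 2 runs of 3. The run on chromosome 1 spanned 41.7 kb, with peaks at 136415277 to 136415588 (312 bp), 136453509 to 136454043 (535 bp) and 136456579 to 136456952 (374 bp). A single region of another list, with Sin3B in myotubes, lay within 100 kb of it. The run on chromosome 9 spanned 17.0 kb at the very start of the listed positions, with peaks at 3019323 to 3019341 (19 bp), 3026643 to 3026669 (27 bp) and 3036319 to 3036340 (22 bp). No peak of another list lay within 100 kb of it, and all 3 of its peaks were under 50 bp wide.

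Chromosome 15 held more of the regions than any other, 41 of 345 (11.9%), followed by chromosome 10 with 33 (9.57%), chromosome 11 with 29 (8.41%) and chromosome 2 with 28 (8.12%). Per 10 Mb, chromosome 15 held 3.97, chromosome 10 held 2.57, chromosome 19 held 2.45 and chromosome 11 held 2.39. The X chromosome had 4 regions, or 0.241 per 10 Mb. On no chromosome was a difference in share from the other 338 Sin3A myoblast regions detected (Fisher's exact test, two-sided, 0 of 20 chromosomes called at an adjusted p under 0.05, percentage called 0%, lowest adjusted p = 0.851, none at an unadjusted p under 0.05). In the same exact test, the largest ratios of odds were on chromosome X (1.97, 4 against 2 regions), chromosome 8 (1.83, 20 against 11, p = 0.141) and chromosome 1 (1.65, 23 against 14, p = 0.176). The smallest were on chromosome 7 (0.563, 7 against 12, p = 0.252) and chromosome 11 (0.665, 29 against 41, p = 0.130, Fisher's exact test). Neighbouring regions of 1 chromosome share its copy number, which was not analysed here.

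Chromosome 15 stood out against the rest of the series. It held 11.9% of the regions with Sin3A in myoblasts alone and 5.72% of all 4792 other regions (odds ratio 2.22, Fisher's exact test, adjusted p = 6.88e-04 over 20 chromosomes, of which 5% were called, chromosome 15 itself). Of the other Sin3A myoblast regions 10.4% lay on chromosome 15, against 5.37% of the 4454 regions without Sin3A in myoblasts (odds ratio 2.04, Fisher's exact test, adjusted p = 0.0111 over 20 chromosomes, of which 5% were called). A difference between the regions with Sin3A alone and those with another list was not detected on this chromosome (odds ratio 1.17, Fisher's exact test, p = 0.545). On chromosome 10 the shares were 9.57% and 6.03% (odds ratio 1.65, Fisher's exact test, adjusted p = 0.150). The 41 regions of chromosome 15 ran from 7.01 to 102 Mb with a median gap of 924 kb and a largest gap of 14.3 Mb, and thus did not come from 1 locus. The 5 widest of them were the 4 named above and one at 85506030 to 85506636 (607 bp), which had a Sin3B myotube peak 3178 bp away. Their widths (median 384 bp) were close to those on the other chromosomes (386.5 bp). Distances to another list had a median of 83.1 kb on chromosome 15 and of 115 kb on the others.

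**Figure D4:**
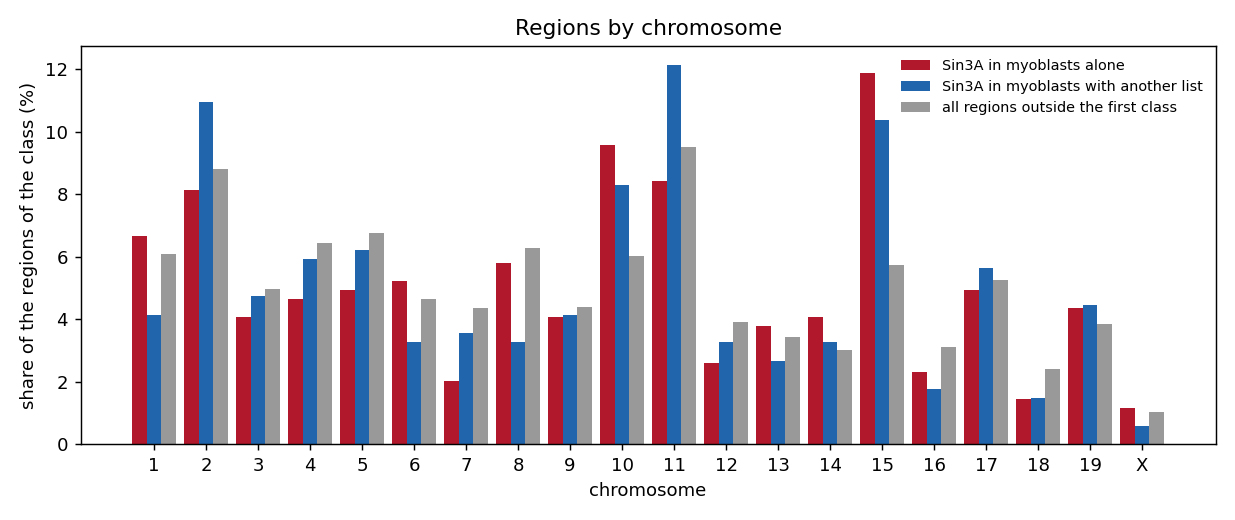
Share (%) of regions on each chromosome for regions with Sin3A in myoblasts alone (red, n = 345), Sin3A in myoblasts with another list (blue, n = 338) and all 4792 regions outside the first class (grey). On chromosome 15 the bars are at 11.9%, 10.4% and 5.72%.

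Genes could be named only for a small part of the genome. No source used here names the build of the files, and the gene table at hand was of GRCm38.p6. On chromosome 16, however, 123 of the 143 regions without Sin3A in myoblasts (86.0%) lay within 1 kb of a gene boundary of the table. A boundary is the gene start where a promoter table gave it and otherwise either end of the gene. Moving the table by 5 or 10 kb left 4.2 to 6.99%, and on the other 19 chromosomes together the share was 10.3%. Shifts smaller than 5 kb were not tried. Distances in bp to boundaries, and the promoter bases counted under a peak, thus assume that the positions agree exactly. Stretches that lined up in this way were found with the regions that lack a Sin3A myoblast peak. They were most of chromosome 16 (90.2 Mb), and leading stretches of chromosomes 5, 8, 13, 18 and 19. They held 13 of the 345 regions (3.77%), namely 7 on chromosome 16, 5 on chromosome 19 and 1 on chromosome 13.

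Gene boundaries lay within 1 kb of 7 of these 13 regions. Besides Adamts1, Kmt5b and Pcx, with boundaries at 0, 0 and 84 bp, these were Tfap4, Fosl1, Fam89b and the long non-coding RNA gene Gm35330. Tfap4 encodes AP-4, a basic helix-loop-helix factor that binds E-boxes and acts downstream of Myc in proliferating cells. Its region at 4559774 to 4560314 on chromosome 16 (541 bp) lay inside the gene, 448 bp from a gene end. A wider region with Sin3A at both stages and Sin3B in myotubes stood 323 bp away at 4558209 to 4559450. Fosl1 encodes Fra-1, an AP-1 subunit induced by growth factors. Its region at 5448687 to 5448977 on chromosome 19 (291 bp) lay inside the gene, 989 bp from a gene end, with a Sin3B myoblast peak 137 bp away. The Fam89b region at 5728679 to 5729040 on chromosome 19 (362 bp) was 592 bp from a gene end, and that of Gm35330 at 5723632 to 5723931 on chromosome 13 (300 bp) was 680 bp from one. Peaks of Sin3B in myotubes, Sin3A in myotubes and Sin3B in myoblasts lay 2168, 2302 and 2414 bp from the Fam89b region. The nearest peak to the Gm35330 region, of Sin3B in myoblasts, was 137 kb away. For these 4 genes the table gives no strand, so whether the end is the start of the gene was not determined.

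The start sites differed in what surrounded them. The Adamts1 region at 85802628 to 85803164 on chromosome 16 (537 bp) had a Sin3B myoblast peak 991 bp away. At Kmt5b, the region at 3767588 to 3768200 on chromosome 19 (613 bp) was 83.7 kb from any other list, and at Pcx, the region at 4509865 to 4510388 (524 bp) was 113 kb from one. Neither the Kmt5b nor the Pcx region thus had a peak of another list within 10 kb. The Pcx region lay 84 bp from the gene start, while those of Adamts1 and Kmt5b covered theirs.

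The other 6 of the 13 lay away from gene boundaries, 4 inside genes and 2 outside. Inside were those at 91699389 to 91699590 on chromosome 16, in Cryzl1 and Gm10785, at 30186030 to 30186247 in Gm26562, at 84682778 to 84683135 in 4930529L06Rik and, on chromosome 19, at 4169409 to 4169863 in Carns1, the carnosine synthase gene. Outside were those at 64604488 to 64604806 on chromosome 16, 2157 bp from the start of Csnka2ip, and at 86421297 to 86421646, 152 kb from the nearest boundary. Of the 6 lists of genes counted here, 18 genes had a boundary in the stretches and 10 of these had some region within 1 kb, among them Actn3, Mcm4, Cdc45, Ing1 and Ndufv1. None of the 18 had a region with Sin3A in myoblasts alone. Of all 1710 genes with a boundary in the stretches, 16.8% had some region within 1 kb and 0.409% (7 genes) had one with Sin3A in myoblasts alone, so that 0 of 18 says nothing particular about these lists. The lists covered sarcomere and calcium handling (3 genes in the stretches), cell cycle and DNA replication (4), the Sin3-HDAC complex (3), myogenic regulators (0), the respiratory chain (5) and ribosomal proteins (3).

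On the whole of chromosome 16, 2 of the 8 regions with Sin3A in myoblasts alone (25%, 3.19 to 65.1%) and 5 of the 6 other Sin3A myoblast regions (83.3%, 35.9 to 99.6%) lay within 1 kb of a gene boundary, where 82.8% of all 157 regions of the chromosome did. The difference did not pass the test (Fisher's exact test, two-sided, p = 0.103). Of the 8, 1 lay beyond the lined-up stretch, where the table could not place it near a gene. Without it the shares were 28.6% (2 of 7) and 83.3% (Fisher's exact test, p = 0.103). The chromosome was chosen because its regions without Sin3A in myoblasts lay near boundaries. A comparison with their 86.0% is therefore circular, and no conclusion is drawn from it. Over all stretches the shares were 53.8% (25.1 to 80.8%) for the 13 regions and 92.3% (64.0 to 99.8%) for 13 other Sin3A myoblast regions (Fisher's exact test, p = 0.0730), against 87.9% of all 273 regions there. With the starts of the promoter table alone, 3 of the 13 regions (23.1%) and 8 of the 13 others (61.5%) were near (Fisher's exact test, p = 0.111). The 247 regions without Sin3A in myoblasts had served to find the stretches. Their share of 89.5% is given as a description, since a comparison with it is circular too. Regions held by Sin3B alone gave 80% in myoblasts (36 of 45) and 90.3% in myotubes (102 of 113). Sin3A in myotubes alone gave 100% (6 of 6). These regions are among those that served to find the stretches, so their shares are circular in the same way. The 82.8% and 87.9% over all regions include such regions too and are no independent measure. Distances were taken from the edges of merged regions. The 13 other Sin3A myoblast regions, merged with peaks of other lists, were 624 to 1751 bp wide, against 202 to 613 bp for the 13 with Sin3A alone. A wider region reaches closer to a boundary, and these tests made no allowance for width. With 13 regions, the share for the whole class is known only within the wide interval given.

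**Figure D5:**
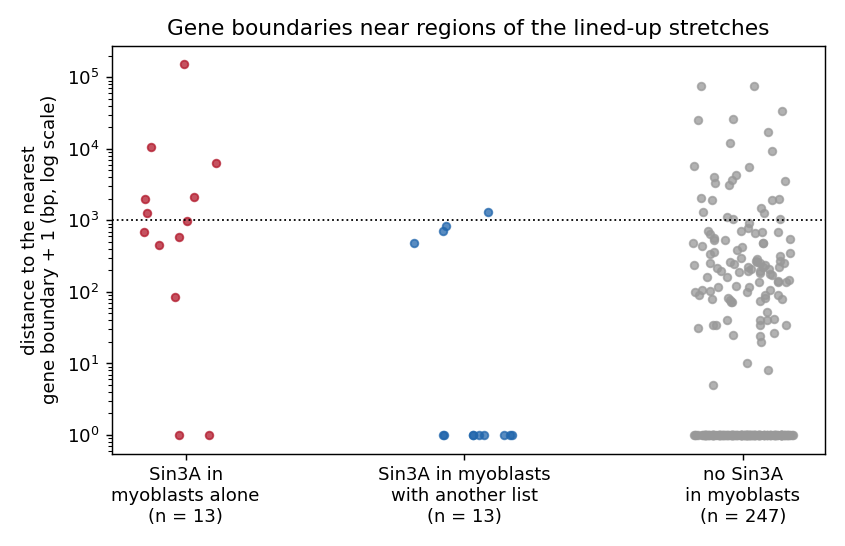
Distance from region edge to the nearest gene boundary plus 1 (bp, log axis) in the lined-up stretches, 1 point per region, with a dotted line at 1 kb. Of the regions with Sin3A in myoblasts alone (red), 7 of 13 lie below the line, against 12 of 13 with another list (blue) and 221 of 247 without Sin3A in myoblasts (grey).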

How the data were processed

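Per the labels' protocols, nuclei were sonicated, chromatin was pulled down by antibody, and the libraries, after 18 PCR cycles, were read on a Genome Analyzer. The authors deposited 11 lists of peak positions (chromosome, start, end) with no score, count or header. No source used here names the aligner, caller, threshold or build, or says how input and pooling were handled. Depth is unknown, and PCR copies are not independent molecules.

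The first file of each of the 4 groups was used. Peaks sharing at least 1 bp were merged with Python 3.11.15, numpy 2.4.6, pandas 2.3.3 and scipy 1.17.1, and drawn with matplotlib 3.10.9. Starts were raised by 1. Shares of regions were tested with Fisher's exact test, two-sided, with Benjamini-Hochberg adjustment over 20 chromosomes and a threshold of 0.05. The chromosome test was checked on simulated data. The regions, lists and tests were chosen with earlier results of these data known.

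The GRCm38.p6 table holds 34328 protein-coding or long non-coding genes, of which 78.1% have a start in the promoter table and the rest were taken by either end. A stretch lined up where at least 7 of 11 consecutive regions without Sin3A in myoblasts lay within 1 kb of a boundary. Gene boundaries, stretches, their alternatives and the chromosome test of the other Sin3A myoblast regions were chosen after seeing the data. The naming rule took the 10 widest and 3 narrowest regions, runs of 3 or more, the 5 regions on each side of the overlap border, the 5 widest of a chromosome past the test, and the genes at regions. Planned tests of GC content and motifs in the regions were not run, since no genome of the files' build was used here. Alternatives were a required overlap covering 50% of the shorter peak, merging within 1 or 5 kb, leaving out peaks under 50 bp, the other lists cut to peaks of at least their median width, another comparison set, leaving out chromosome X, counting joined regions once, other gaps, a distance of 5 kb and each file of a group in turn.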

Additional observations from a re-analysis of the deposited data

How the results depend on the processing

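The number of regions with Sin3A in myoblasts alone was 375 with an overlap of 50% of the shorter peak, 319 and 300 with peaks merged within 1 and 5 kb, 340 without peaks under 50 bp and 449 with the other lists cut to peaks of at least their median width. No chromosome was called against the other Sin3A myoblast regions under any of these except merging within 5 kb, where this test was not run, nor without chromosome X or with joined regions counted once. Against all other regions 1 chromosome was called (Fisher's exact test, adjusted p = 6.88e-04). The median width was between 383 and 392 bp with the 50% overlap, merging within 1 kb, the 50 bp minimum and the cut lists, and was not recomputed for merging within 5 kb. Runs of 3 or more numbered 2 with gaps of 50 kb and 8 with gaps of 500 kb. Near gene boundaries on chromosome 16, the share was 12.5% with the starts of the promoter table alone (Fisher's exact test, p = 0.0909), 25% with either end of every gene (p = 0.277) and 50% within 5 kb (p = 0.0849), none past the threshold against the other Sin3A myoblast regions. Over the stretches it was 53.8% as reported, 23.1% with the starts alone, 53.8% with either end of every gene (Fisher's exact test, p = 0.411) and 76.9% within 5 kb (p = 0.22), none past it either. The shares of 25% and 53.8% were also set against regions without Sin3A in myoblasts, but these had been used to choose the chromosome and the stretches by their nearness to boundaries, so that comparison is circular and supports nothing. The alternative of motifs in whole peaks was not run. Leaving out any file of a group changed nothing, as the files of a group are identical, and this says nothing of the spread between cultures. No paired analysis was possible because each group is 1 list. The unknown depth of the lists limits every statement that a peak was missing.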
